A study of Mus musculus with 12 samples.

Results

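Myosin heavy chains, troponin T, titin, nebulin and the ryanodine receptors build and trigger the contractile unit of heart and skeletal muscle, and 7 of their genes were followed here in hematopoietic stem and progenitor cells (HSPCs) of the mouse. The genes were Myh6 and Myh7 (cardiac myosin heavy chains), Tnnt2 (cardiac troponin T), Ttn (titin), Neb (nebulin) and Ryr1 and Ryr2 (ryanodine receptors), taken by symbol from the 20792 genes with values. They were chosen with their reads in these same libraries known, so their levels are given as a description with no test, and tests are given for other genes. HSPCs were sorted from bone marrow by Sca-1 and c-kit, without CD127 and lineage markers of wild-type mice, with 3 libraries in each of 4 groups. ND mice ate a normal diet, and HSD mice received salted chow and water for 8 weeks, both without ICH. ND ICH and HSD ICH mice were taken on day 7 after intracerebral hemorrhage, modelled by an injection of the animal's own blood into the brain. All mice ate normal chow after ICH, so HSD ICH stands for a high salt diet before the hemorrhage and not after it. The mice were male, each ND and HSD library was pooled from 3 animals, and the number behind an ICH library and the strain are not given in the sources used here.

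In striated muscle, myosin heavy chains pull on actin, troponin T ties the calcium sensor of the thin filament to tropomyosin, and titin and nebulin run along the sarcomere as giant elastic and thin-filament proteins. Ryanodine receptors release calcium from the sarcoplasmic reticulum to start contraction. Blood progenitors have no sarcomeres, and they move and divide with nonmuscle myosin and release stored calcium mainly through inositol trisphosphate receptors.

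The sorted cells carried progenitor transcripts in every library, at a lower level in HSD ICH replicate 3. Kit, the stem cell factor receptor, had 442 ± 5.74 CPM (counts scaled to library size, SD, n = 3) in ND and 390 ± 52.6 CPM in HSD ICH, and Cd34 had 350 ± 4.15 and 270 ± 48.7 CPM. The median of 18 HSPC identity genes was 10.48 CPM per kb of exon in HSD ICH replicate 3, the most deeply sequenced library, and 18.3 to 23.7 in the other libraries. Reads in listed genes numbered 8678304 to 27491973 per library. Dividing the CPM by the value of 1 read gave back the reads, which are less certain for HSD replicate 2. Libraries without ICH had 1393 to 1755 listed genes with no read, and libraries after ICH had 2 to 29. The summed level of 13 macrophage genes ranged from 149 to 500.1 CPM in ND, from 125 to 857 in HSD, from 135 to 209 in ND ICH and from 97.4 to 209 in HSD ICH. ND replicate 1 and HSD replicate 2 were the high libraries of the groups without ICH.

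Myh6 and Myh7 lie next to each other on the minus strand of chromosome 14 (GRCm38), at chr14:54941921-54966927 and chr14:54970684-54994626, and their coding sequences are 91.7% identical over 5804 aligned bases. The longest stretch that both share is 245 bases, at coding positions 4246 to 4490 of Myh6 and 4240 to 4484 of Myh7, counted from the start codon. It is shown because a read of 150 bases that falls inside it belongs to both genes.
Myh6 and Myh7, shared: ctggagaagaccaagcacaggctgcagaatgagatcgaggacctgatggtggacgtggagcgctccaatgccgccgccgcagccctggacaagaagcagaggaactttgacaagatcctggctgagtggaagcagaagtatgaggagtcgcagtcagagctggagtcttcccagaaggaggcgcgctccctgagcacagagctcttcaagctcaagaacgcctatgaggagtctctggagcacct
Such windows were few, since 5.83% of the 5659 windows of 150 bases in the Myh7 coding sequence occurred unchanged in Myh6. The 90-base stretch where the aligned genes differ most holds 33 differing bases, which stand in capitals, at coding positions 3222 to 3311 of Myh6 and 3216 to 3305 of Myh7.
Myh6: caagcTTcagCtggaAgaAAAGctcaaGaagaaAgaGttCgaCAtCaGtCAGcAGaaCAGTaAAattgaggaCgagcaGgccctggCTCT
Myh7: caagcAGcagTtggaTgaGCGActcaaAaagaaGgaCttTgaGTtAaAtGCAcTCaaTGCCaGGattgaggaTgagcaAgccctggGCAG
How the authors' counting treated reads that match both genes is not given in the sources used here, so a small part of the reads of each could belong to the other.

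Myh6, Myh7 and Tnnt2 are the heart genes of the group, and their promoters are shown for the M-CAT element, a motif of muscle promoters. It was searched as CATTCC or its reverse complement GGAATG, on both strands, in the 250 bases before each annotated start (RefSeq, GRCm38.p6), and matches stand in capitals. Promoters were found for 6 of the 7 genes, all but Neb. TATAAA and its reverse complement TTTATA, the TATA box, were searched in the same windows, without capitals in the print, and occurred in 0 of the 6 genes and in 12.4% of all promoters. An M-CAT match was present before a start of 3 of them, Myh6, Myh7 and Tnnt2, and in 12.6% of all 32851 promoters. For both motifs the members are counted by gene, at any start, and the share by single promoter, so the units differ. For Myh6 only the 200 bases farther from the start are printed, at chr14:54966658-54966857 on the minus strand, with the match 206 bases before the start. They lie inside the Myh6 span given above, since the RefSeq start used lies downstream of the start of that gene model.
Myh6: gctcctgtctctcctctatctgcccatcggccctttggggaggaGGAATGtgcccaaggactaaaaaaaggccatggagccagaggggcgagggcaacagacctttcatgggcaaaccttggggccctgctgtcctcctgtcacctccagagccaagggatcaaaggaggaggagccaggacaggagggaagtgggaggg
For Myh7 the window is chr14:54994627-54994876 on the minus strand, with the match in its far part.
Myh7: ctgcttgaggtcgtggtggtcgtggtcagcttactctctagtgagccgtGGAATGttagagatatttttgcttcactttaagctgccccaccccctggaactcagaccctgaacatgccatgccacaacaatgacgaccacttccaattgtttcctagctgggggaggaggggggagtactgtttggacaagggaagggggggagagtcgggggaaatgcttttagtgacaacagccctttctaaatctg
For Tnnt2 the window is chr1:135836084-135836333 on the plus strand, with the match 27 bases before the start.
Tnnt2: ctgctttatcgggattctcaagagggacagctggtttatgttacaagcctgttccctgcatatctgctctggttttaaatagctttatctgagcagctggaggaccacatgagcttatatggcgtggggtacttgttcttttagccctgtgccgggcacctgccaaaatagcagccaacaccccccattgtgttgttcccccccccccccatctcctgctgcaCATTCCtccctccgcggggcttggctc
A second start of Myh7 and of Tnnt2 had no match. These are matches of letters, and no binding was measured.

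Myh6 encodes the α-myosin heavy chain, the main motor of the adult mouse heart, and had reads in ND HSPCs but almost none in HSD HSPCs. Its reads numbered 27, 32 and 53 in the ND libraries (2.45 ± 0.796 CPM, SD, n = 3) and 1, 1 and 2 in the HSD libraries (0.124 ± 0.0782 CPM). The lowest ND library stood above the highest HSD library. Pooled over libraries, the level was 22.3-fold higher in ND than in HSD (95% interval 8.46 to 83.2, exact, for counting error only), and 23.8-fold higher without ND replicate 1 and HSD replicate 2. After ICH the reads numbered 58, 97 and 78 in ND ICH (5.11 ± 1.12 CPM) and 50, 12 and 53 in HSD ICH (2.07 ± 1.27 CPM). HSD ICH replicate 2 was low, at 0.887 CPM beside 3.41 and 1.91 CPM in replicates 1 and 3. Myh6 was 2.07-fold higher in ND ICH than in ND (95% interval 1.64 to 2.61) and 18.5-fold higher in HSD ICH than in HSD (7.04 to 69.2), without overlap between the groups in either case. Between diets after ICH it was 2.48-fold higher in ND ICH than in HSD ICH (1.98 to 3.13), again without overlap.

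Myh7 encodes the β-myosin heavy chain of the fetal mouse heart and of slow skeletal fibers, and was likewise absent from HSD HSPCs. It had 14, 26 and 16 reads in the ND libraries (1.23 ± 0.411 CPM) and no read in any HSD library. The 0 reads over the HSD group allow a level of up to 0.0833 CPM (3 reads over the group). The pooled ND level was 14.8 times that ceiling, a ratio that leaves out the counting error of the ND reads. After ICH it had 56, 71 and 67 reads in ND ICH (4.28 ± 0.620 CPM) and 26, 20 and 25 in HSD ICH (1.39 ± 0.444 CPM). The level was 3.44-fold higher in ND ICH than in ND (95% interval 2.54 to 4.72) and 3.35-fold higher in ND ICH than in HSD ICH (2.54 to 4.46). In HSD ICH the pooled level was 15.3 times the ceiling for HSD, again without the counting error of the HSD ICH reads. The groups did not overlap in any of these comparisons. An antisense gene, Mhrt, overlaps 484 exonic bases of Myh7, and the strand setting of the counting is not given in the sources used here. Mhrt had 4, 7 and 3 reads in ND, none in HSD, 6, 32 and 16 in ND ICH and 6, 7 and 9 in HSD ICH.

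Tnnt2, the cardiac form of troponin T, lies at chr1:135836354-135852260 on the plus strand and was close to the detection limit without ICH. It had 4, 3 and 6 reads in ND (0.286 ± 0.0919 CPM) and 0, 2 and 0 in HSD (0.067 ± 0.116 CPM), and the ranges of the groups overlapped. The ratio of ND to HSD was 5.17 with a 95% counting interval from 1.17 to 47.2. It was 2.79 without HSD replicate 1, and without HSD replicate 2, which held both reads, HSD had no read at all. After ICH it had 39, 50 and 28 reads in ND ICH (2.53 ± 0.466 CPM) and 14, 9 and 10 in HSD ICH (0.661 ± 0.297 CPM). This was 8.94-fold above ND (5.03 to 17.3) on the normal diet. On HSD the ratio to the libraries without ICH was 10.6 (2.72 to 91.5), or 5.74 without HSD replicate 1, and without HSD replicate 2 no read was left in HSD. ND ICH was 4.34-fold above HSD ICH (2.93 to 6.60), and no ND ICH library fell into the range of HSD ICH.

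**Figure D1:**
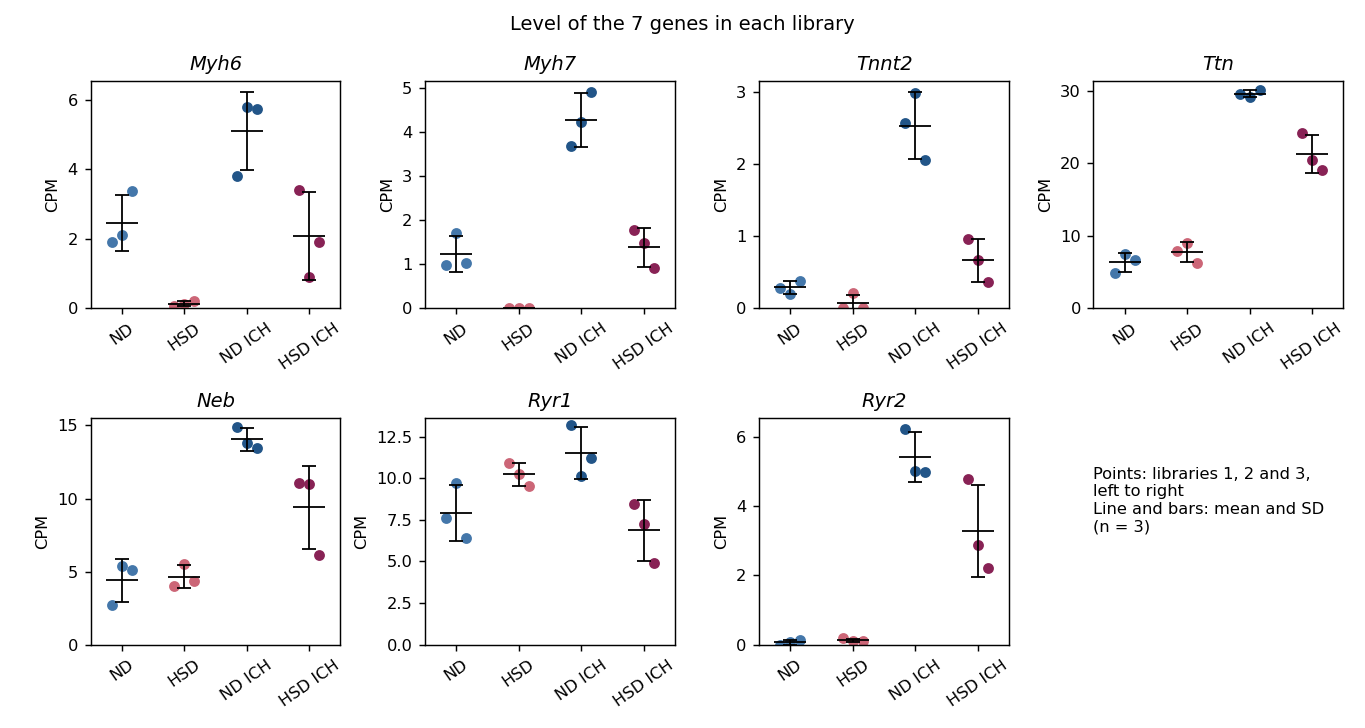
CPM of each of the 7 genes (vertical axes, linear from 0) in the 3 libraries of ND, HSD, ND ICH and HSD ICH (points), with mean and SD (bars, n = 3). Myh6 and Myh7 are near 0 in HSD and not in ND, Ryr2 is near 0 in both groups without ICH, and Ryr1 alone is lower in HSD ICH than in HSD.

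Ttn encodes titin, the molecular spring of the sarcomere, and lies at chr2:76703980-76982547 on the minus strand with 116825 exonic bases. It had 69, 113 and 105 reads in ND (6.31 ± 1.34 CPM) and 131, 90 and 59 in HSD (7.72 ± 1.41 CPM), with ranges that overlapped. After ICH it had 449, 489 and 410 reads in ND ICH (29.6 ± 0.457 CPM) and 354, 277 and 529 in HSD ICH (21.3 ± 2.62 CPM). The level was 4.66-fold higher in ND ICH than in ND (95% interval 4.10 to 5.32) and 2.67-fold higher in HSD ICH than in HSD (2.34 to 3.05). Every ICH library stood above every library without ICH, and every ND ICH library above every HSD ICH library.

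Neb encodes nebulin, which runs along the thin filament of skeletal muscle, and lies at chr2:52136647-52378474 on the minus strand. It had 39, 82 and 81 reads in ND (4.42 ± 1.47 CPM) and 67, 55 and 41 in HSD (4.63 ± 0.788 CPM), which overlapped. After ICH the reads rose to 227, 231 and 183 in ND ICH (14.05 ± 0.776 CPM) and 162, 149 and 170 in HSD ICH (9.41 ± 2.83 CPM). The level was 3.15-fold higher in ND ICH than in ND (2.69 to 3.71) and 1.90-fold higher in HSD ICH than in HSD (1.59 to 2.29), without overlap. HSD ICH replicate 3, the most deeply sequenced library, was the lowest of its group, at 6.14 CPM beside 11.06 and 11.01 CPM.

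The ryanodine receptors differed from each other. Ryr1, the calcium release channel of skeletal muscle, lies at chr7:29003344-29125179 on the minus strand and had reads in every library. It had 7.63, 9.73 and 6.41 CPM in ND, 10.9, 10.2 and 9.51 CPM in HSD, 13.2, 10.2 and 11.2 CPM in ND ICH and 8.47, 7.24 and 4.88 CPM in HSD ICH. Without ICH it was 1.31-fold higher in HSD than in ND (95% interval 1.13 to 1.52), with ranges that overlapped. After ICH it was 1.45-fold higher on the normal diet (95% interval 1.27 to 1.67) and, on HSD, at 0.617 of the level without ICH (0.532 to 0.715), so that the ICH groups lay on opposite sides of their controls. The antisense gene Gm26604 overlaps 864 exonic bases of Ryr1 and had 0.461 ± 0.232, 0.868 ± 0.178, 1.20 ± 0.107 and 0.404 ± 0.163 CPM in the same succession, and its means ranked as those of Ryr1 did. The kit keeps the strand of the RNA, and whether the counting used it is not given in the sources used here. Without it, reads in the shared 864 of the 21838 exonic bases of Ryr1 cannot be told apart.

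Ryr2, the calcium release channel of the heart and of neurons, lies at chr13:11553102-12106945 on the minus strand and was nearly without reads before ICH. It had 0, 1 and 2 reads in ND and 3, 1 and 1 in HSD. After ICH it had 95, 84 and 68 reads in ND ICH (5.42 ± 0.717 CPM) and 70, 39 and 61 in HSD ICH (3.29 ± 1.34 CPM). The ratio to the libraries without ICH was 81.7 on the normal diet (95% counting interval 27.6 to 399) and 21.9 on HSD (9.21 to 68.4). Without ND replicate 3, which held 2 of the 3 reads in ND, the first ratio was 160.

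Without HSD ICH replicate 3, the pooled ratio of HSD ICH to HSD was 19.8 for Myh6, 14.7 for Tnnt2, 2.88 for Ttn, 2.44 for Neb, 0.761 for Ryr1 and 27.9 for Ryr2. That of HSD ICH to ND ICH was then 0.431 for Myh6, 0.384 for Myh7, 0.318 for Tnnt2, 0.757 for Ttn, 0.785 for Neb, 0.686 for Ryr1 and 0.714 for Ryr2. Each kept its direction.

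All 7 genes had groups that did not overlap between ICH and no ICH on the normal diet, 7 higher. Of all 19387 genes tested there, 19.1% had groups that did not overlap and were higher after ICH, and 14.3% were lower. On HSD 6 of the 7 were higher and 1, Ryr1, was lower, beside 14.2% and 14.5% of 18082 genes. Between diets without ICH, 2 of the 7, Myh6 and Myh7, did not overlap and were lower on HSD, beside 5.75% of 16787 genes that were lower and 7.07% that were higher. Between diets after ICH, all 7 were lower in HSD ICH without overlap, beside 13.3% lower and 10% higher of 20079 genes. The genes were chosen with these levels known, so nothing is read from their counts.

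Per kb of exon, the order of the 7 genes differed between groups. In ND, the order of mean levels per kb was Myh6 (0.365 ± 0.118 CPM per kb), Ryr1 (0.363 ± 0.0769), Neb (0.166 ± 0.0553), Myh7 (0.143 ± 0.0477), Ttn (0.054 ± 0.0114), Tnnt2 (0.0369 ± 0.0119) and Ryr2 (0.00223 ± 0.0022). The ranges of Myh6 and Ryr1 overlapped, as did those of Neb and Myh7 and those of Ttn and Tnnt2. In HSD, Ryr1 led at 0.468 ± 0.0322 CPM per kb, followed by Neb (0.174 ± 0.0296) and Ttn (0.0661 ± 0.0121), and the means of the heart genes and Ryr2 were at most 0.0184 CPM per kb, with ranges below those of Ryr1, Neb and Ttn. In ND ICH, Myh6 was highest at 0.760 ± 0.167 CPM per kb, Neb (0.529 ± 0.0292), Ryr1 (0.528 ± 0.0711) and Myh7 (0.497 ± 0.0719) overlapped, and Tnnt2 (0.327 ± 0.0601), Ttn (0.253 ± 0.00391) and Ryr2 (0.188 ± 0.0249) followed. The range of Myh6 also overlapped with those of Ryr1 and Myh7. Ttn had the highest CPM of the 7 and the second lowest level per kb there. In HSD ICH, Neb led at 0.354 ± 0.106 CPM per kb and Tnnt2 was last at 0.0853 ± 0.0384, and each gene overlapped with its neighbours in the order.

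To set these levels against reads that rise with gene length, 47 long genes of neurons, cilia, kidney and other tissues were used, chosen as genes without a known role in blood cells. Without ICH, 16 of the 47 had no read in ND and 22 had none in HSD, 40 averaged under 1 CPM, and their median level was at most 0.00419 CPM per kb in any library. After ICH each of the 47 had reads in both groups. After ICH the median was 0.225 to 0.242 CPM per kb in the ND ICH libraries and 0.102 to 0.177 in the HSD ICH libraries. All 47 had a higher mean in ND ICH than in ND and 44 of 47 a higher mean in HSD ICH than in HSD, without overlap for 45 and 41 of them. By limma 42 of 46 tested were higher in ND ICH (42 by edgeR) and 40 of 46 in HSD ICH (39 by edgeR, 31 without HSD replicate 3), and 0 were lower, although most could pass the filter on reads only through the ICH libraries. Exceptions were genes with many reads in every group, such as Bsn, a presynaptic scaffold, with 39.3 ± 2.89 CPM in ND and 39.5 ± 7.37 CPM in ND ICH, and Dnah11, a dynein of cilia, with 11.7 ± 0.901 and 13.6 ± 0.507 CPM. Dnah5, another dynein of cilia, showed the common pattern, with no read in ND or HSD, 4.10 ± 0.321 CPM in ND ICH and 2.52 ± 1.27 CPM in HSD ICH. The 614 protein-coding genes without any read in the 6 libraries without ICH, a set chosen by its reads, had a median of 0.231 to 0.252 CPM per kb in the ND ICH libraries and 0.0933 to 0.175 in the HSD ICH libraries.

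Across all 47 long genes, which share libraries and are not independent, Pearson's r of the logarithms of level and length in ND ICH was 0.42 for exon length, 0.10 for genomic span and 0.46 for exon length with 300 bases added for each exon block, a measure chosen after seeing the data that allows for reads that reach into introns. In HSD ICH the values were 0.39, 0.11 and 0.39. Among the 40 that averaged under 1 CPM without ICH, a subset chosen by its reads, they were 0.58, 0.31 and 0.80 in ND ICH and 0.63, 0.38 and 0.83 in HSD ICH. The slope, where 1 stands for a level in proportion to length, was 0.83 in ND ICH and 0.92 in HSD ICH on exon length over the 47 genes, and 0.84 in both with the added bases. Over the 40 genes it was 0.81 and 0.82 on exon length and 1.03 and 1.01 with the added bases. With short non-blood genes added to the 47, 53 genes in all, the slope on exon length was lower. It was 0.63 in ND ICH and 0.62 in HSD ICH (r = 0.65 and 0.57), with only those short genes that had reads.

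**Figure D2:**
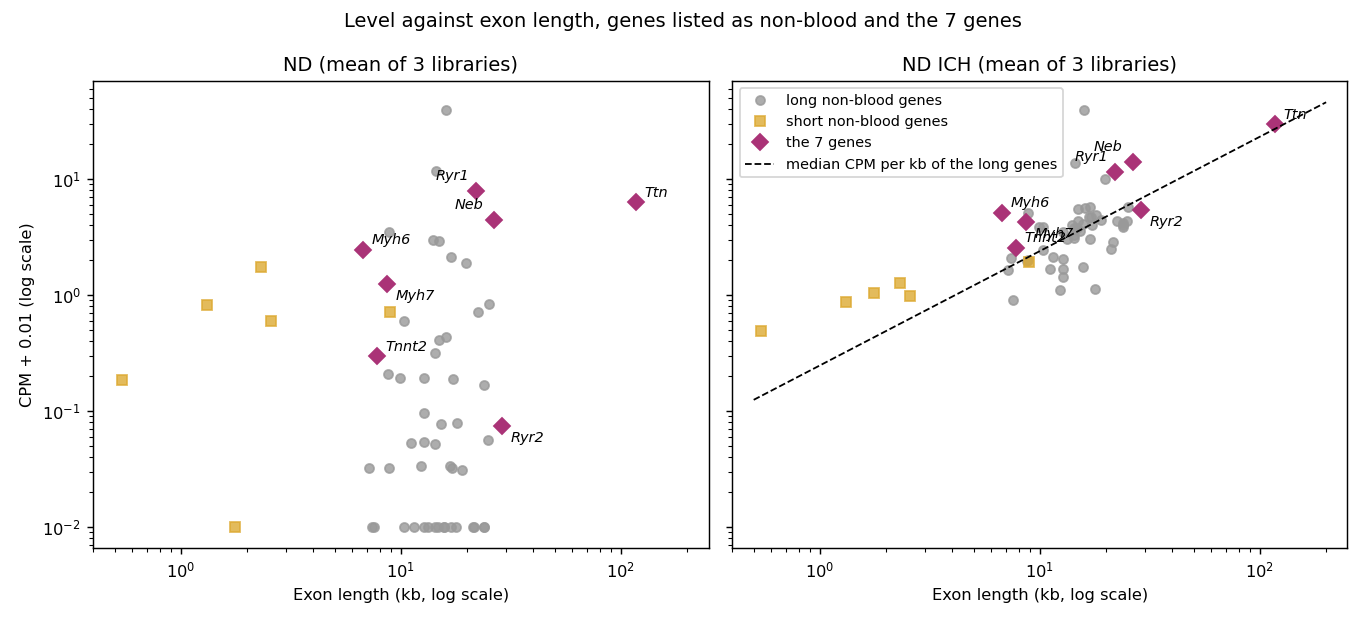
Mean CPM (vertical axis, log scale, 0.01 added) against exon length in kb (horizontal axis, log scale) in ND (left) and ND ICH (right) for 47 long and 6 short genes listed as non-blood and the 7 genes. In ND most long genes lie at or near 0 and 6 of the 7 genes lie above 0.2 CPM, while in ND ICH the long genes gather around the dashed line of equal CPM per kb and Ttn and Ryr2 lie close to it.

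Read against the median of the 47 long genes in the same library, the 7 genes fell into different ranges after ICH. Ryr2 was at 0.717 to 0.958 of that median in ND ICH and at 0.716 to 0.940 in HSD ICH. Ttn was at 1.07 to 1.12 times the median in ND ICH and 1.17 to 1.61 times in HSD ICH, higher in HSD ICH without overlap. Neb was at 2.09 to 2.48 and 2.27 to 2.96 times, and Ryr1 at 2.07 to 2.67 and 2.20 to 2.37 times. The ICH libraries of both diets overlapped for Ryr2, Neb and Ryr1. The heart genes were lower against it in HSD ICH. Myh7 was at 1.89 to 2.36 times the median in ND ICH and 1.03 to 1.23 times in HSD ICH, and Tnnt2 at 1.10 to 1.71 and 0.458 to 0.698, without overlap in either gene. Myh6 was at 2.50 to 3.83 times in ND ICH and at 0.943 to 2.88 times in HSD ICH, with overlap through replicates 1 and 3. Without ICH the median of the long genes was at or near 0. Myh6, Myh7 and Tnnt2 in ND and Ttn, Neb and Ryr1 in both diets lay above it, Tnnt2 with 3 to 6 reads per library. In HSD, where the median was 0, Myh6 and Ryr2 also lay above it, with 1 to 3 reads per library. Single long genes were as high or higher there, up to 2.47 CPM per kb in ND and 2.98 in HSD for Bsn. What share of the members' reads after ICH has the same source as those of the long genes was not tested. The same holds for the origin of the Myh6 and Myh7 reads in ND.

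**Figure D3:**
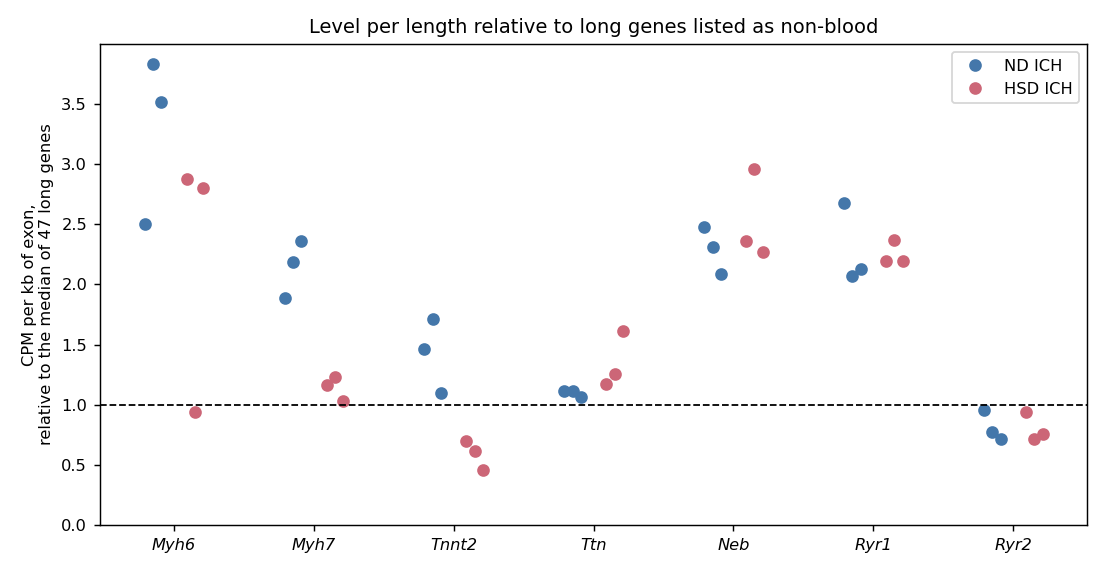
CPM per kb of exon relative to the median of 47 long genes listed as non-blood in the same library (vertical axis, linear from 0) for each of the 7 genes in the 3 ND ICH and 3 HSD ICH libraries (points), with the dashed line at 1. Ryr2 lies below 1 in all 6 libraries, and Neb and Ryr1 lie above 2 in all. Myh7 and Tnnt2 lie lower in HSD ICH than in ND ICH, and Ttn lies higher.

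Other genes of the skeletal sarcomere mostly rose after ICH on the normal diet, and about as many of the cardiac list passed as did not. Their lists were chosen with earlier results of these data known. Of 22 other skeletal sarcomere genes listed, 21 could be tested by limma on the normal diet, and 17 were higher and 0 lower at an adjusted p under 0.05 (17 called by edgeR, and 18 higher and 0 lower before adjustment). Of all 19387 genes tested, 13.5% were higher and 3.23% lower by that rule. Many of the called genes had few or no reads without ICH on either diet and could pass the filter on reads only through the ICH libraries, where they had to be higher. For such genes here and in the other lists, the values are given without a p. Over all 22 the groups did not overlap for 19, and with no filter 18 were higher on the normal diet and 13 on HSD. All 6 skeletal myosins of the list were at or below 0.0352 CPM on average in ND and HSD and at or above 1.05 CPM in both ICH groups. Myh13, of extraocular muscle, had no read in ND and 3.01 ± 0.489 CPM in ND ICH, and Myh2, of fast oxidative fibers, had no read and 1.77 ± 0.2503 CPM. Myom1, the M-band protein myomesin, had 3.18 ± 1.53 and 4.79 ± 0.640 CPM (limma adjusted p = 0.187). On HSD, 10 of the 16 tested were higher and 0 lower (10 called by edgeR, and 11 higher at an unadjusted p under 0.05), beside 5.31% higher and 1.26% lower of 18082 genes. That count was 4 without HSD replicate 1, 5 without HSD replicate 3 and 6 without HSD ICH replicate 1 or 2. Myh4, of the fastest fibers, had no read in HSD and 1.45 ± 0.242 CPM in HSD ICH.

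Of 12 other cardiac sarcomere genes, 6 were higher and 0 lower in ND ICH than in ND by limma, with a median log2 fold change of 0.73 beside 0.01 over all genes tested. The groups did not overlap for 7 of the 12, and with no filter 6 were higher on the normal diet and 3 on HSD. Ldb3, a Z-disc protein, had 0.0452 ± 0.0392 CPM in ND and 1.47 ± 0.102 CPM in ND ICH. Nebl, the nebulin-related nebulette of the heart, had 0.599 ± 0.142 and 2.97 ± 0.543 CPM. Myom2 had 0.0212 ± 0.0366 and 2.10 ± 0.616 CPM. Tnni3, cardiac troponin I and the marker of heart muscle that was listed, had 2.56 ± 0.921 and 3.08 ± 0.259 CPM (adjusted p = 0.4997), and Mybpc3, cardiac myosin-binding protein C, had 4.37 ± 0.542 and 5.04 ± 0.284 CPM (adjusted p = 0.501, both limma). The heart markers Myl2, Myl3, Myl7, Tnnc1, Actc1 and Nppa were not analysed here. On HSD, 2 of 9 tested were higher, Nebl and Myom2, and 0 were lower (2 called by edgeR). Without HSD replicate 1 the count was 1. Between diets without ICH, none of the 7 that entered limma was called after adjustment (0 by edgeR), and 1 was lower at an unadjusted p under 0.05. It was Mybpc3, with 2.83 ± 0.264 CPM in HSD beside 4.37 CPM in ND (limma adjusted p = 0.594), and it was also the one gene of the 12 whose groups did not overlap. In that comparison 0.0774% of 16787 genes passed an adjusted p under 0.05, and before adjustment 3.65% were higher and 3.28% lower.

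Short muscle genes, whose transcripts are abundant in muscle, were mostly not called. The list held 23, of which 12 were listed. Of 11 tested in ND ICH against ND, 1 was higher by limma and 0 were lower (1 by edgeR), and on HSD 0 of 11 passed (0 by edgeR, 2 higher at an unadjusted p under 0.05). The gene that passed was Myl1, a myosin light chain, with 0.0233 ± 0.0404 and 0.822 ± 0.178 CPM. Eno3, the muscle enolase, had 3.93 ± 0.916 and 3.70 ± 0.617 CPM, and Pgam2, the muscle phosphoglycerate mutase, had 1.64 ± 0.452 and 1.65 ± 0.239 CPM. Of 16 muscle transcription factors, 3 were listed, Myocd, Tbx20 and Gata4, and the other 13 were not analysed here, so nothing follows for the class. Of the 2 tested on the normal diet 2 were higher and of 1 tested on HSD 1 was higher, a count that was 0 without HSD replicate 1, 2 or 3 or HSD ICH replicate 2. In the libraries without ICH, 0 of the 3 passed the filter on reads. The tested genes passed it only through the ICH libraries, where they had to be higher. Myocd, a coactivator in heart and smooth muscle, had 0.0212 ± 0.0366 and 1.22 ± 0.216 CPM. Of 30 short non-blood genes, 6 were listed, so that the count rests on those with reads, while all 47 long ones were listed. Of the 6 short genes, 2 of 5 tested were higher on the normal diet and 0 of 3 on HSD by limma (2 and 0 by edgeR, and 0 on HSD at an unadjusted p under 0.05).

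Partners of the ryanodine receptors in muscle rose in part, and none of the calcium store genes of blood cells was called. Of 13 other calcium release genes, 6 were higher and 0 lower in ND ICH than in ND (6 by edgeR, and 6 without a filter). The groups did not overlap for 6 higher genes and 1 lower gene of the 13. Cacna1s, the calcium channel that opens Ryr1 in skeletal muscle, had 0.0678 ± 0.0701 and 2.74 ± 0.281 CPM, and Cacna1c, its heart counterpart, had 0.534 ± 0.134 and 5.30 ± 0.845 CPM. On HSD these were the 2 of 10 that passed by limma, and 4 of 13 passed with no filter. Asph, the largest contributor to this list, had 49.98 ± 3.20 and 52.6 ± 2.93 CPM, and Pln, phospholamban, had 4.91 ± 0.845 and 5.98 ± 0.517 CPM. Of 9 general calcium store genes, 0 passed in either ICH comparison by limma or edgeR, and 2 and 1 were lower at an unadjusted p under 0.05. Itpr1, an inositol trisphosphate receptor, had 169 ± 11.7 CPM in ND and 166 ± 9.63 CPM in ND ICH.

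The contractile genes that blood cells use mostly had levels far above the 7 genes, with a median of 35.5 CPM per kb in ND. The lowest of the 12 had 1.07 CPM per kb there, beside 0.365 for Myh6. Myh9, the nonmuscle myosin heavy chain IIA, had 1044 ± 28.7 CPM in ND and 988 ± 26.6 CPM in ND ICH, and Actb, β-actin, 1773 ± 102 and 1727 ± 48.4 CPM. Of 12 nonmuscle contractile genes, 0 passed in either ICH comparison (limma and edgeR), with 1 lower on the normal diet and 2 higher on HSD before adjustment. Long genes of blood cells were not called higher either. Of 18, 0 were higher and 2 lower on the normal diet (1 called by edgeR), and 0 passed on HSD (0 by edgeR, 2 higher and 4 lower before adjustment). Kmt2a, a histone methyltransferase, had 536 ± 64.0 CPM in ND and 401 ± 1.505 CPM in ND ICH (limma adjusted p = 0.0185). Marrow stroma genes were also mostly higher after ICH. Of 11 listed, 10 were higher and 0 lower in ND ICH and 8 were higher and 0 lower in HSD ICH by limma (9 and 6 by edgeR). Of all genes tested, 13.5% and 5.31% were higher. Only 3 of the 11 passed the filter on reads in the libraries without ICH alone. The others passed it only with the help of the ICH libraries, which favours a higher level there. The limma count in HSD ICH was 2 when any of 5 libraries was left out, all but HSD ICH replicate 3. Col3a1, a fibrillar collagen, had no read without ICH, 1.87 ± 0.370 CPM in ND ICH and 0.983 ± 0.307 CPM in HSD ICH. The summed level of the stroma list, mostly Pdgfrb, ranged from 64.8 to 66.3 CPM in ND, 68.6 to 87.1 in HSD, 87.3 to 97.0 in ND ICH and 53.2 to 82.5 in HSD ICH. Among 18 HSPC identity genes, 0 were higher and 1 was lower in ND ICH than in ND by limma, the transcription factor Tal1 (log2 fold change −0.39, adjusted p = 0.0349). On HSD 0 were higher and 1 was lower, with a median log2 fold change of −0.46, 10 lower before adjustment and 11 of 18 lower without overlap. Without HSD ICH replicate 3, 3 were lower, and without any 1 of the HSD replicates 0 were. The part of these differences in those of the 7 genes was not tested. Of 13 macrophage genes and 7 erythroid genes 0 passed in either ICH comparison by limma (1 macrophage gene by edgeR on the normal diet, and 2 lower macrophage genes on the normal diet and 2 lower erythroid genes on HSD at an unadjusted p under 0.05). Of the B cell genes 0 of 3 and 0 of 1 passed (0 by edgeR, 1 higher on the normal diet at an unadjusted p under 0.05). The part of stroma or muscle cells in these reads was not tested, and in bulk samples fewer cells of a type and less RNA per cell cannot be told apart.

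Between diets after ICH, all 7 genes had lower means in HSD ICH, as did most of the long non-blood and sarcomere genes. Lists of genes that blood cells use differed in this. Means were higher in HSD ICH for 10 of 12 nonmuscle contractile genes (median log2 difference 0.18) and 7 of 9 general calcium store genes (0.15). The same held for 9 of 18 long blood genes. Means were higher for only 4 of 18 HSPC identity genes (−0.22), 4 of 13 macrophage genes (−0.48) and 1 of 7 erythroid genes (−0.80). Of the B cell genes, 1 of 4 had a higher mean. The ratio of HSD ICH to ND ICH had a median of 0.645 over the 47 long genes (quartiles 0.600 and 0.700), and 45 of them were below 1. Ttn (0.718), Neb (0.669), Ryr2 (0.607) and Ryr1 (0.595) lay within their range, with 37, 31, 14 and 10 of the 47 below them. Myh6 (0.405), Myh7 (0.324) and Tnnt2 (0.261) had 0 of the 47 below them. Abca13, the gene with the highest ratio and a transporter of lipids, had 10.04 ± 1.73 CPM in ND ICH and 22.2 ± 18.4 CPM in HSD ICH. Of 20079 genes tested, 0% were called at an adjusted p of 0.05 by limma or edgeR in this comparison, 98 genes passed by DESeq2, while before adjustment limma called 5.42% higher and 10.2% lower at that p. Of the other genes, 11 of 21 skeletal sarcomere genes, 5 of 12 cardiac sarcomere genes and 22 of 47 long genes fell below 0.05 before adjustment by limma, all lower in HSD ICH, with medians of −0.58, −0.31 and −0.53 on the log2 scale beside −0.03 over all genes.

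**Figure D4:**
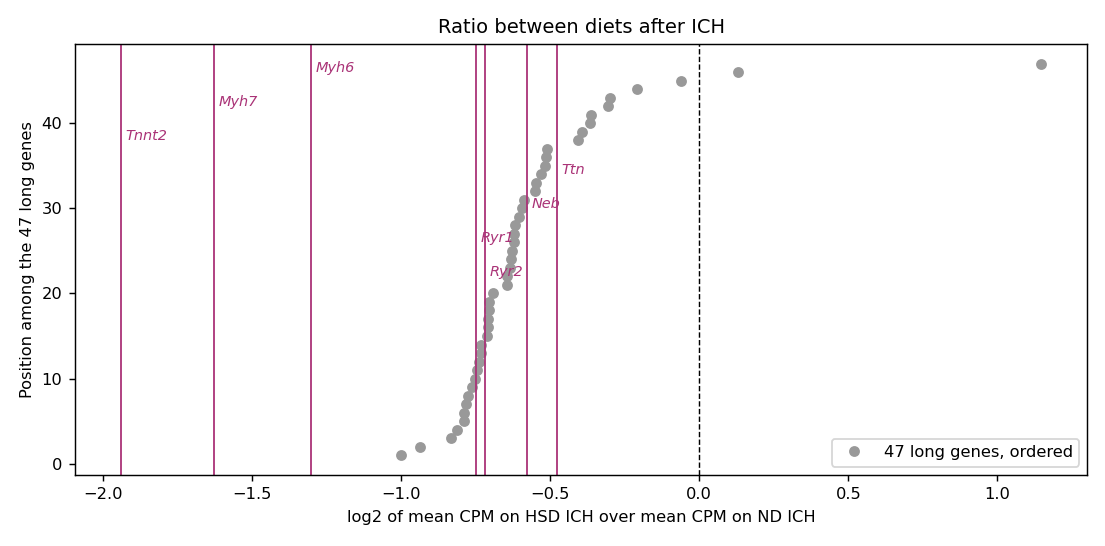
Ratio of mean CPM in HSD ICH to ND ICH on the log2 scale (horizontal axis) for 47 long genes listed as non-blood, in rising order (points, vertical axis position 1 to 47), with vertical lines at the ratios of the 7 genes. Tnnt2, Myh7 and Myh6 lie to the left of all 47 points, and Ryr1, Ryr2, Neb and Ttn lie among them.

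The genes whose levels ran most alike over the 12 libraries differed between the members, as a description over 20393 genes. For Myh6 they were Gm26640 (Pearson's r = 0.95 on log2(CPM + 0.5)), Gm26805 (0.94), Myh7 (0.93) and Pcdhb17 (0.92). For Myh7 they were Gm26805 (0.97), Pla1a, a phospholipase (0.95), Irf4, a lymphoid transcription factor (0.95), and Zfp941 (0.94). Gm26805 also had few reads in HSD, with 0.507, 0.0201, 0.931 and 0.464 CPM in ND, HSD, ND ICH and HSD ICH, and Pla1a had 0.424, 0.0201, 0.845 and 0.458 CPM. Tnnt2 was most like Kalrn (0.98), Slco2a1 (0.97), Obox2 (0.97) and 4921524L21Rik (0.97), of which Obox2 and 4921524L21Rik had no read without ICH. Ttn was most like Gm37985 (0.99), Frem2 (0.99) and Asb15 (0.99), and Neb most like Dsc1 (0.98), Gm26680 (0.97) and Ptprn2 (0.97), all at or under 0.663 CPM without ICH. Ryr2 was most like Dnah5, Stxbp5l and Col5a2 (each 1.00), of which Dnah5 is among the 47 long genes and Col5a2 encodes a collagen. Ryr1 was most like Cabp7 (0.92), Pdzd7 (0.91) and its antisense gene Gm26604 (0.89), and both Cabp7 (2.21, 2.96, 3.236 and 2.18 CPM) and Pdzd7 (2.98, 3.92, 4.36 and 2.97 CPM) had reads in each group, listed as ND, HSD, then ND ICH and HSD ICH. The libraries are shared by all these genes, and the coefficients largely follow the group means.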

How the data were processed

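RNA was sequenced from sorted HSPCs, 3 libraries in each of ND, HSD, ND ICH and HSD ICH. The authors aligned paired reads of 150 bases to mm10 with Rsubread 1.32.4, counted them per gene with featureCounts, and scaled them by TMM in edgeR 3.24.3. The deposited values are CPM per gene and library. Here CPM were divided by the CPM of 1 read, which gave whole reads for 100% of values in every library within a tolerance of 0.01. HSD replicate 2, in which 1 read was worth 0.100 CPM, did not pass a separate check of this recovery, so its reads are less certain. The listed genes lack those with few reads, since the fewest reads of any over all 12 libraries was 14. Exon lengths came from GENCODE M21, in which 20550 of 20792 identifiers were found.

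Groups were compared by limma 3.58.1 with a variance trend on log2(CPM + 0.5), for genes that reached 10 reads in 3 or more of the 6 libraries, with Benjamini-Hochberg adjustment over all genes tested. Fold changes on this scale understate the change of genes with few reads. Alternatives were other pseudocounts and filters, edgeR 4.0.16 (quasi-likelihood, which called 3094 and 1064 genes in the ICH comparisons on the normal diet and on HSD and 14 and 0 between diets without and after ICH) and DESeq2 1.42.0 on the recovered reads, a fit of all 12 libraries, a replicate block and the omission of each library, which kept the genes tested. The scripts were tested on simulated data. The study calls the ND and HSD libraries biological replicates, each a pool of 3 animals. For the ICH libraries this is not given in the sources used here, so their spread may be technical. Intervals cover counting error only.

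The 7 genes and all 15 gene lists were chosen with earlier results of these data known. A test of the 7 genes in the ICH comparisons had been planned. It was left out after its p-values had been seen, because the genes had been chosen by their reads in all 4 groups. Named list genes were up to 4 with the highest mean CPM and up to 3 with the smallest p in each ICH comparison among those past the threshold, except where the text says that a gene stood alone in a count. Like genes were the 4 or 3 with the highest correlation. The motif search was first run over longer windows that reached past the start, and was then limited to the 250 bases before it. Some genes that this rule names are not reported here.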

Additional observations from a re-analysis of the deposited data

Results flagged for a closer look

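Ryr1 moved in opposite directions after ICH on the 2 diets. The difference of mean log2(CPM + 0.5) between ICH and no ICH was 0.53 on the normal diet and −0.57 on HSD, and in each case every ICH library lay on the same side of every library without ICH. The difference between the diets was not tested.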

How the results depend on the processing

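Over all genes, 3245 passed an adjusted p under 0.05 in ICH against none on the normal diet, 1189 on HSD, 13 between diets without ICH and 0 between diets after ICH (limma, with 3134 at an unadjusted p under 0.05 in the last, and 0 by edgeR). With the study's filter of CPM above 10 in at least 3 libraries, under which most sarcomere genes were not tested, 116 and 44 passed in the ICH comparisons. On HSD, 2384 passed with no filter and 2047 in a fit of all 12 libraries. Leaving out 1 library gave 429 to 1327 on HSD, with 429, 653 and 545 without HSD replicates 1, 2 and 3 and 788 without HSD ICH replicate 1. Between diets without ICH, 8 passed with no filter, 65 by DESeq2 and 0 in the fit of all 12 libraries. Leaving out 1 library gave 8 (without ND replicate 3) to 22 (without HSD replicate 2), and 98 passed without both ND replicate 1 and HSD replicate 2, an alternative chosen after seeing the data. Between diets after ICH, 98 passed by DESeq2 and 319 in the fit of all 12 libraries. The cause of these changes was not tested. With the replicate number as a block the 4 counts were 3304, 1081, 16 and 0. The labels do not say whether the numbers pair the libraries. After removal of the group means, correlations of same-numbered libraries ran from −0.191 to 0.0794, which shows no pairing but cannot exclude it.

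The ratios of the 7 genes to the long-gene median in ND ICH depended on the length used. Per kb of genomic span they were 15.4 for Myh6, 13.4 for Myh7, 12.1 for Tnnt2, 7.98 for Ttn, 4.37 for Neb and 7.09 for Ryr1. With 300 bases added per exon block, chosen after seeing the data, they were 1.26 for Ttn, 1.73 for Neb and 1.91 for Tnnt2. Of the differences of the 7 genes between ICH and no ICH under all alternatives, 163 moved by less than the spread between replicates, 23 by more, and 0 reversed. Differences between diets are not in these counts. The pooled ratio of HSD to ND without ICH for Neb was 1.01. It fell to 0.860 without ND replicate 1 and to 0.929 without HSD replicate 2. With 0 to 6 reads per library, levels of Tnnt2 and Ryr2 without ICH were limited by depth.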
